A study of Homo sapiens with 4 samples.

Results

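The zinc finger gene clusters of human chromosome 19 were examined as 4 blocks of the hg19 build. The first block was chr19:20000000-24500000, the second chr19:36600000-38400000, the third chr19:52300000-54000000 and the fourth chr19:56200000-58900000, together 10.7 Mb. The blocks were chosen by position alone, and every loop or same-anchor pair with an anchor midpoint in a block was a member. The measurements came from H3K27ac HiChIP, which ligates DNA segments that lie close together in fixed nuclei and enriches the junctions for histone H3 acetylated at lysine 27, a mark of active promoters and enhancers. The libraries were made from 4 untreated colorectal cancer cell lines, HCT116, LS513, SW620 and SW480, with 1 library per line and no treated or control group. A value counts paired-end tags (PETs), that is, sequenced ligation junctions between anchors, an anchor being a stretch of enriched DNA. A filtered loop joined 2 different anchors whose midpoints lay 5 to 2000 kb apart, and a same-anchor pair counted the PETs with both ends in 1 anchor. Over the 4 libraries, 766 of 184225 filtered loops and 226 of 72787 same-anchor pairs were members, and the rest of chromosome 19 held 15596 and 3549.

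Most genes of these clusters are known to encode KRAB zinc finger proteins. Their tandem fingers bind DNA, often in transposable elements, and the KRAB domain recruits the corepressor TRIM28, which brings in the methyltransferase SETDB1 and leads to trimethylation of histone H3 at lysine 9. The clusters grew by repeated local duplication, and their own gene bodies are known to carry that same repressive mark in many cell types, while the promoters can stay open. By symbol, the RefSeq annotation of the GRCh38.p14 build held 265 zinc finger genes on chromosome 19, with or without a KRAB domain. They were 18.3% of the chromosome's 1451 protein-coding genes. They made up 46.6% of the 569 such symbols on all chromosomes. In gene order they formed 8 runs of at least 8 members, and these runs held 220 of the 265 genes. The 3 longest ran over the 49 zinc finger genes between ZIM3 and ZNF446, the 40 between ZNF577 and ZNF331 and the 37 between ZNF101 and ZNF254. Their hg19 positions were not used here, so the runs were not placed in the blocks and no anchor was assigned to a gene. Clusters of this kind are also known elsewhere on chromosome 19, so the rest of the chromosome is not free of zinc finger genes.

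The libraries differed in depth, and SW480 stood apart. All filtered loops of a library numbered 40696 in HCT116, 74401 in LS513, 62104 in SW620 and 7024 in SW480. On chromosome 19 they carried 8318, 21161, 10435 and 334 PETs in the same order of lines. The SW480 values for the blocks thus rest on 4 loops and 7 PETs, and the mean log2 ratios of blocks to rest are given with and without SW480. The anchors of HCT116 and LS513 were the same set: all 88 block anchors of HCT116 had identical coordinates in LS513, which had 92. Of the 66 block anchors of SW620, 8 were identical to one of LS513. Counts of anchors in HCT116 and LS513 are therefore not independent of each other. Intervals cover counting error only, since PETs carried no molecular identifiers and no line had a replicate. A ratio measured within each of 4 libraries cannot reach an exact sign-flip permutation p under 0.125 (two-sided).

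The blocks carried far fewer H3K27ac HiChIP PETs per megabase than the rest of chromosome 19, in every line. Only PETs within or between anchors were counted, so signal outside anchors was not seen. How reads matching several near-identical zinc finger genes were treated is not given, and its part in the gap was not tested. Same-anchor PETs, which report the enrichment of an anchor itself, numbered 2305 in the blocks in HCT116, 4257 in LS513, 1797 in SW620 and 295 in SW480. Per Mb this was 215, 398, 168 and 27.6 PETs in the blocks, against 1625, 2441, 1153 and 135.5 PETs in the rest of the chromosome. No library came near equality. The ratio of blocks to rest was 0.133 in HCT116 (95% interval 0.127 to 0.138), 0.163 in LS513 (0.158 to 0.168), 0.146 in SW620 (0.139 to 0.153) and 0.204 in SW480 (0.180 to 0.229). On the log2 scale the ratio averaged -2.65 ± 0.266 (SD, n = 4 libraries), a 6.28-fold lower density, with an exact permutation p of 0.125, the lowest that 4 libraries allow. Without SW480 the mean was -2.77.

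Filtered loops gave the same direction in all 4 lines. They numbered 177 in the blocks in HCT116, 372 in LS513, 213 in SW620 and 4 in SW480, and carried 294, 788, 358 and 7 PETs. Per Mb this was 27.5, 73.6, 33.5 and 0.654 loop PETs in the blocks, against 179.9, 457, 226 and 7.33 in the rest of the chromosome. The ratio was 0.153 in HCT116 (0.136 to 0.172), 0.161 in LS513 (0.150 to 0.173), 0.148 in SW620 (0.133 to 0.165) and 0.0892 in SW480 (0.0356 to 0.186). These 4 ratios lay below 1 with their whole intervals. The log2 ratio averaged -2.90 ± 0.397 (SD, n = 4), a 7.44-fold lower density with the same exact permutation p of 0.125, and -2.70 without SW480. A loop with 1 end inside a block was counted for the block here. Counting each end where it lay, an alternative chosen after the data were seen, gave a mean log2 ratio of -3.37, or -3.06 without SW480.

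Although they made up 19.3% of the chromosome length used, the blocks held a small share of its PETs. Their share of the chromosome 19 loop PETs was 3.53% in HCT116 (3.15 to 3.95%), 3.72% in LS513 (3.47 to 3.99%), 3.43% in SW620 (3.09 to 3.80%) and 2.10% in SW480 (0.847 to 4.27%). The intervals of all 4 lines overlap one another. Their share of the same-anchor PETs was 3.08%, 3.76%, 3.38% and 4.65%, in the order HCT116, LS513, SW620 and SW480. Set against all chromosomes rather than against chromosome 19, the blocks lay near the average in loop PETs in HCT116 and LS513, and below it otherwise. They held 1.02 times the genome-wide loop PETs per Mb in HCT116, 1.01 times in LS513, 0.666 times in SW620 and 0.143 times in SW480. For same-anchor PETs these ratios were 0.757, 0.870, 0.603 and 0.641. A loop with 1 end inside a block counted in full for the block, which raises the loop ratios. The genome length kept its anchor-free stretches, which raises both kinds of ratio. The nearness of loop PETs to the average thus depends on this way of counting. The contrast with the rest of chromosome 19 is thus a contrast with a chromosome whose other parts were denser than the genome in same-anchor PETs and in loops.

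**Figure D1:**
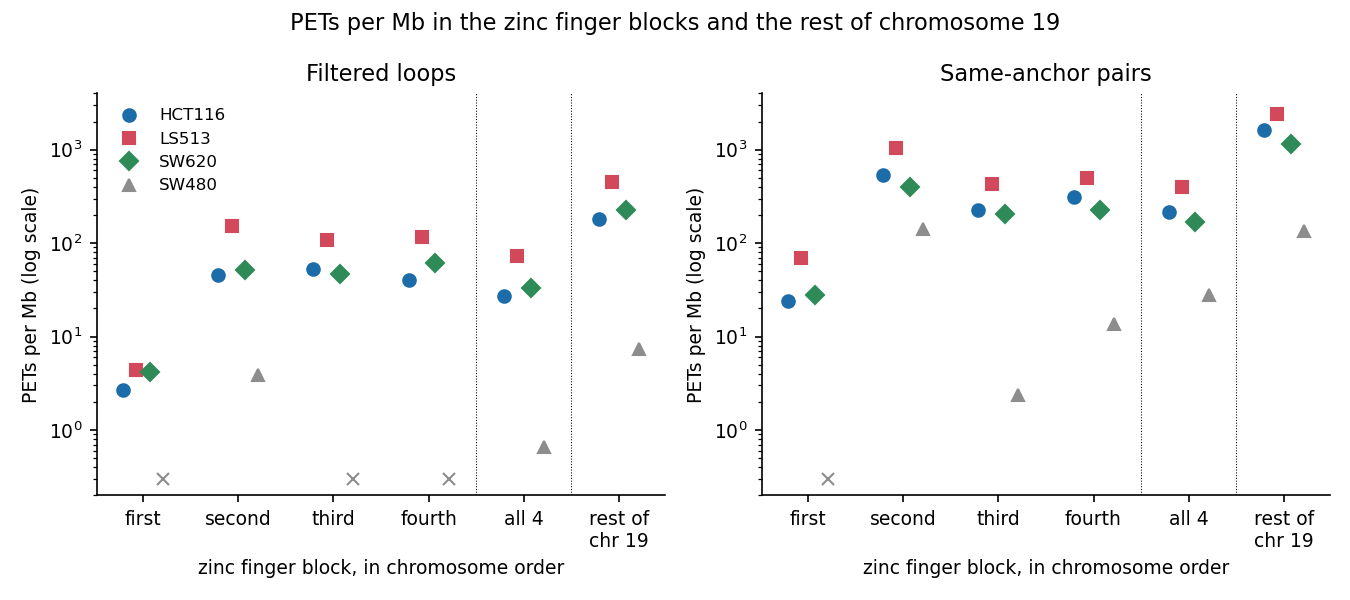
PETs per Mb (log axis) of filtered loops (left) and of same-anchor pairs (right) for each zinc finger block in chromosome order, all 4 blocks together and the rest of chromosome 19, with 1 point per library. Crosses mark SW480 values of 0. The first block is the lowest of the 4 in HCT116, LS513 and SW620, and the values for all 4 blocks lie below those for the rest of the chromosome in every library.

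Most of the gap in density went with the number and length of anchors. The blocks held 88 anchors in HCT116, 92 in LS513, 66 in SW620 and 6 in SW480, against 1154, 1154, 1139 and 224 in the rest of the chromosome. Anchors per Mb stood at 0.318, 0.332, 0.242 and 0.112 times the rest. The mean log2 ratio was -2.11 ± 0.728 (SD, n = 4; exact permutation p = 0.125), and -1.76 without SW480. That test treats the libraries as independent, while HCT116 and LS513 shared nearly all their anchors, so their 2 ratios are close to 1 measurement. Block anchors also had a shorter median length in 3 of the lines. In the order HCT116, LS513, SW620 and SW480 it was 3.48, 3.48, 2.85 and 5.96 kb in the blocks, against 4.70, 4.70, 3.95 and 5.28 kb in the rest. Anchors covered 3.42%, 3.53%, 2.06% and 0.324% of the blocks, and 15.6%, 15.6%, 14.7% and 3.29% of the rest of the chromosome. Once PETs were taken per covered length, the direction was no longer shared. Same-anchor PETs per covered kb stood at 0.605 times the rest in HCT116 and 0.720 times in LS513, at 1.04 times in SW620 and at 2.06 times in SW480. For loop PETs these ratios were 0.697, 0.712, 1.05 and 0.904.

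Single anchors of the blocks had fewer PETs at the median in HCT116 and LS513. The median anchor carried 10 same-anchor PETs in the blocks in HCT116 and 15 in LS513, against 32 and 38 in the rest of the chromosome. In SW620 the medians were 15 in the blocks and 16 in the rest, and in SW480 15.5 and 12. Anchors under 10 PETs made up 48.9% of the block anchors in HCT116, 41.3% in LS513, 42.4% in SW620 and 33.3% in SW480, against 21.0%, 18.4%, 38.2% and 43.8% in the rest. A few anchors held much of the signal. The 5 strongest block anchors of a library carried 42.8% of its block PETs in HCT116, 44.0% in LS513, 44.2% in SW620 and 98.6% in SW480, where only 6 anchors were present.

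The 4 blocks differed widely among themselves. The first block, the longest at 4.5 Mb, was the emptiest, with 109 same-anchor PETs in HCT116, 314 in LS513, 127 in SW620 and 0 in SW480. It held 11, 15 and 13 loops in the first 3 of these lines and 0 in SW480. The second block, of 1.8 Mb, was the densest in same-anchor PETs, with 963 in HCT116, 1873 in LS513, 710 in SW620 and 254 in SW480. The third block held 388, 737, 346 and 4 same-anchor PETs in the same order of lines, and the fourth block 845, 1333, 614 and 37. Loop PETs numbered 82, 272, 94 and 7 in the second block, 90, 183, 80 and 0 in the third, and 110, 313, 165 and 0 in the fourth. Every block loop of SW480 thus touched the second block. Leaving out the first block brought the mean log2 ratio of same-anchor density to -1.94 and that of loop density to -2.15, both still below 0. Without SW480 as well they were -2.08 and -1.97.

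**Figure D2:**
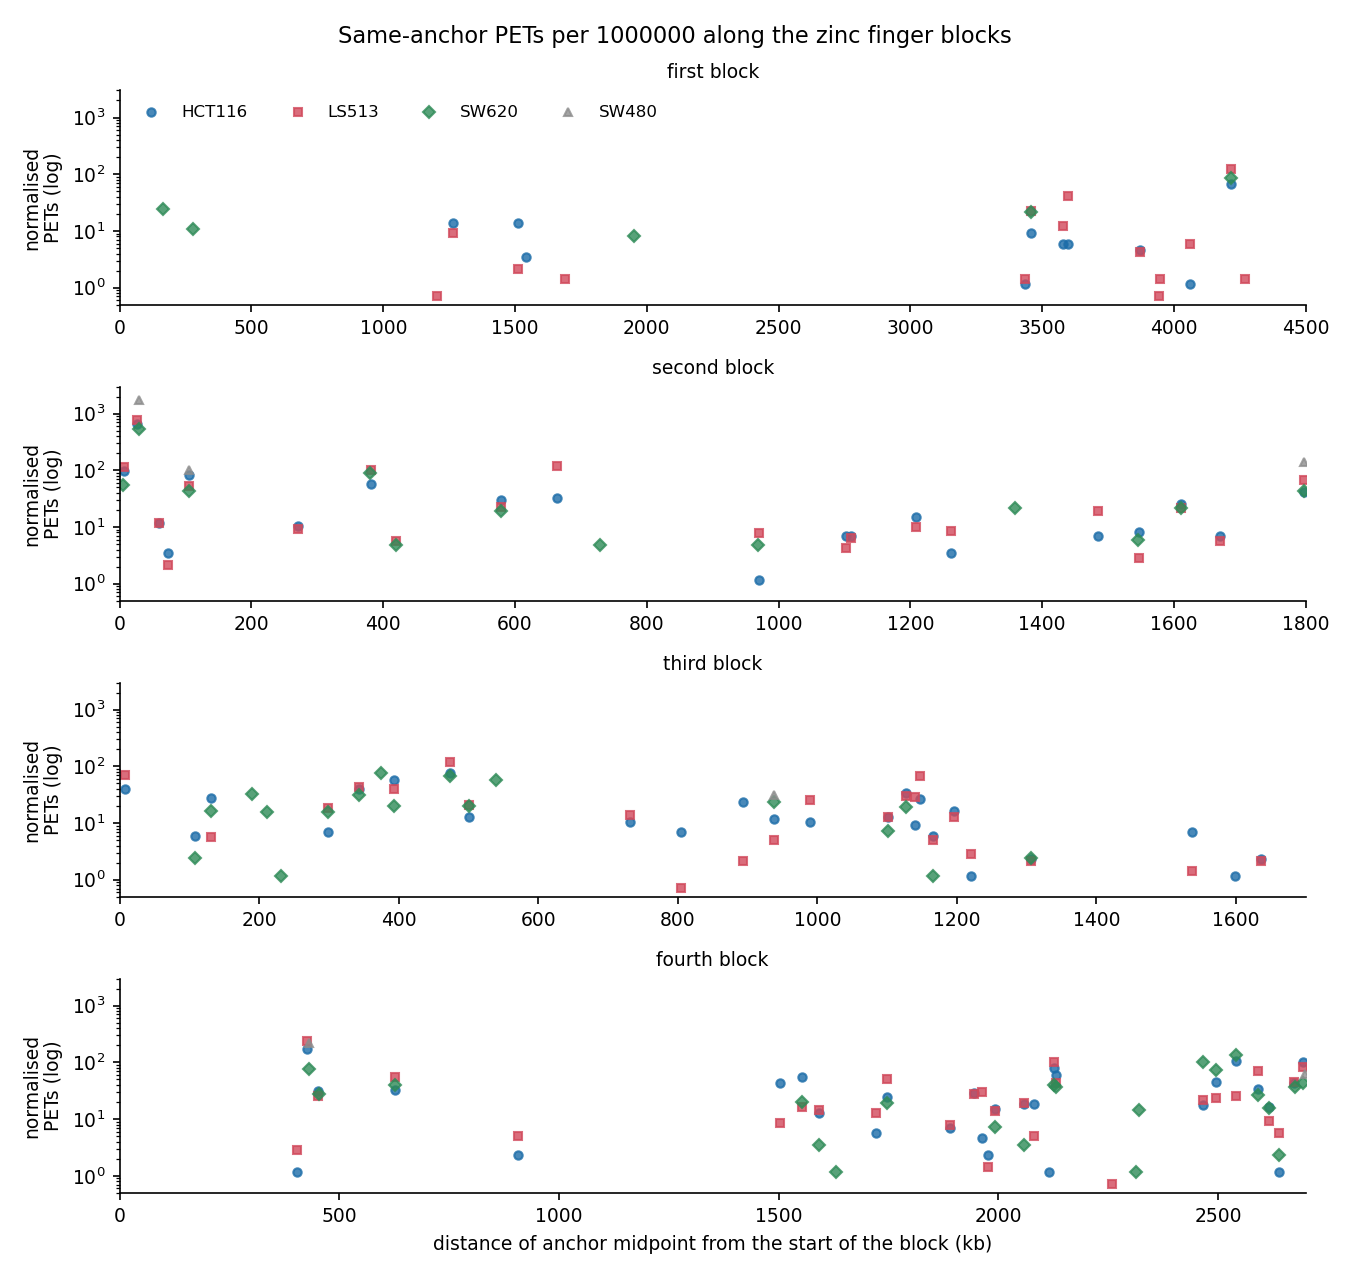
Same-anchor PETs per 1000000 of the library (log axis) at each block anchor, by the distance of its midpoint from the start of the block in kb, with 1 panel per block and 1 symbol per library. Of 252 block anchors over the 4 libraries, 26 had 0 same-anchor PETs and are not drawn. The strongest anchor of the blocks stands near the left edge of the second block in all 4 libraries, and long stretches of the first block hold no point.

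One anchor dominated. The region chr19:36617581-36633970, near the left edge of the second block, carried 576 same-anchor PETs in HCT116, 1052 in LS513, 447 in SW620 and 223 in SW480. This was 25.0%, 24.7%, 24.9% and 75.6% of all block PETs of the library, and 59.8%, 56.2%, 63.0% and 87.8% of those of the second block. It was the strongest block anchor in all 4 lines. It was also the block anchor with most loop partners in HCT116, with 12, in LS513, with 30, and in SW620, with 13. In SW480 it shared the first place with the anchor chr19:38395238-38400669, each with 2 partners. The median block anchor with a loop had 3, 5, 4 and 2 partners, and the median such anchor in the rest of the chromosome had 6, 11, 7 and 2. With this anchor left out, an alternative chosen after the data were seen, the mean log2 ratio of same-anchor density was -3.47, or -3.18 without SW480.

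Much of the block signal lay close to the block edges, and most of the same-anchor PETs there belonged to the dominant anchor of the second block. That anchor lay within 100 kb of the edge and held 576 PETs in HCT116, 1052 in LS513, 447 in SW620 and 223 in SW480. With every block edge moved 100 kb inward, the blocks kept 1421 same-anchor PETs in HCT116, 2633 in LS513, 1185 in SW620 and 46 in SW480. Loop PETs then numbered 206, 503, 255 and 1. The mean log2 ratio was -3.71 for same-anchor PETs and -3.90 for loop PETs. Without SW480, where 1 loop PET was left, the means were -3.32 and -3.13, against -2.77 and -2.70 for the blocks as drawn. In SW480, 3 of the 6 block anchors lay within that margin.

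The leading regions of the other blocks, by their mean over the libraries, were weaker. In the first block it was chr19:24214727-24218926, with 58 same-anchor PETs in HCT116, 169 in LS513 and 72 in SW620, and no anchor in SW480. In the third block it was chr19:52771670-52774988, with 66, 165 and 58 PETs in HCT116, LS513 and SW620 and again no SW480 anchor. The fourth block was led by chr19:56616009-56635105, where all 4 lines had an anchor, with 149 PETs in HCT116, 324 in LS513, 65 in SW620 and 29 in SW480. In HCT116 and LS513 each of these regions was the strongest of its block. In SW620 the fourth block was led instead by chr19:58738411-58742502 with 113 PETs, and the third by chr19:52672997-52675862 with 64. In no line did the 3 regions first named come near the leading anchor of the second block.

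Set against the enrichment of their own anchors, loops in the blocks showed no common direction. The blocks held 12.8 loop PETs per 100 same-anchor PETs in HCT116, 18.5 in LS513, 19.9 in SW620 and 2.37 in SW480, against 11.1, 18.7, 19.6 and 5.41 in the rest of the chromosome. The ratio was 1.15 in HCT116 (1.02 to 1.29), 0.989 in LS513 (0.920 to 1.06), 1.02 in SW620 (0.912 to 1.13) and 0.439 in SW480 (0.175 to 0.914). The mean log2 ratio was -0.24 ± 0.637 (SD, n = 4), with an exact permutation p of 0.875. It turned to 0.07 without SW480. The outcome also depends on how loops that leave a block are counted. By loop ends the ratio was 0.916 in HCT116, 0.766 in LS513, 0.778 in SW620 and 0.248 in SW480, below 1 in all 4 lines. The third block had 23.2 loop PETs per 100 same-anchor PETs in HCT116, 24.8 in LS513 and 23.1 in SW620. The second block had 8.52, 14.5 and 13.2.

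Block loops spanned longer distances. Weighted by PETs, the median distance between anchor midpoints in the blocks came to 189.9 kb for HCT116, 138 kb for LS513, 173 kb for SW620 and 84.8 kb for SW480, against 61.2, 70.1, 58.3 and 26.6 kb in the rest of the chromosome. The ratio was 3.10 in HCT116, 1.97 in LS513, 2.97 in SW620 and 3.18 in SW480. The mean log2 ratio was 1.46 ± 0.327 (SD, n = 4), or 2.76-fold longer, with an exact permutation p of 0.125, and it was 1.39 without SW480. Distances over 500 kb accounted for 21.8% of the block PETs in HCT116 (17.2 to 26.9%), 22.1% in LS513 (19.2 to 25.1%) and 23.5% in SW620 (19.2 to 28.2%), against 9.78%, 10.3% and 9.68% in the rest. In SW480 it was 1 of 7 PETs.

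The length of the spans depended on which loops were kept. Among loops with both ends in the same block, the median span came to 140 kb for HCT116, 65.3 kb for LS513, 91.4 kb for SW620 and 76.2 kb for SW480. These were 2.29, 0.932, 1.57 and 2.86 times the rest, so LS513 was no longer above 1. With each loop counted once, whatever its PETs, the medians were 266, 382, 345 and 80.5 kb in the blocks and 133, 197, 146 and 87.4 kb in the rest, and SW480 was then below 1. Neighbouring anchors also stood farther apart in the blocks. The median gap between midpoints came to 51.3 kb for HCT116, 51.3 kb for LS513 and 61.9 kb for SW620, against 20.3, 20.3 and 17.9 kb in the rest. The part of this spacing in the longer spans was not tested.

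**Figure D3:**
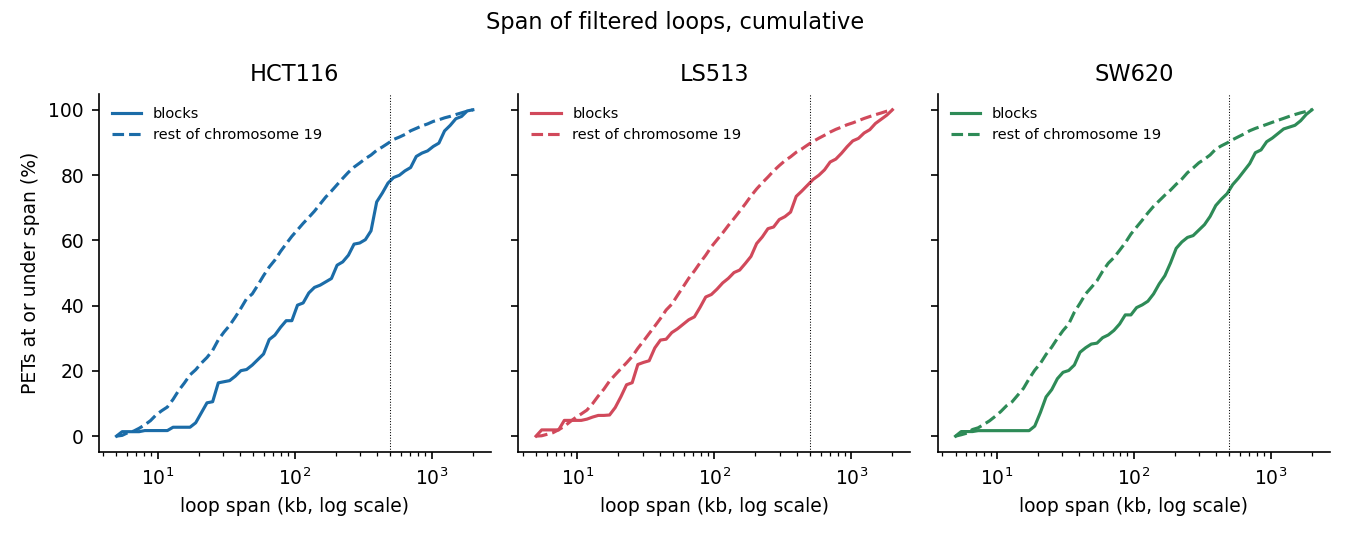
Cumulative share of loop PETs (%) at or under a given loop span (kb, log axis) for the zinc finger blocks (solid) and the rest of chromosome 19 (dashed) in HCT116, LS513 and SW620; SW480, with 7 block PETs, is not drawn, and the dotted line marks 500 kb. The solid line lies below the dashed one over most spans, and 21.8% to 23.5% of block PETs lie beyond 500 kb, against 9.68% to 10.3% in the rest.

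Many block loops stayed inside their block. Both ends lay in the same block for 60.2% of the block loop PETs in HCT116, 56.2% in LS513, 54.2% in SW620 and 14.3% in SW480. In the third block this share was 83.3% in HCT116, 77.6% in LS513 and 72.5% in SW620, and in the fourth block it was 47.3%, 47.9% and 51.5%. Most loops were seen by 1 PET. Such loops made up 69.5% of the block loops in HCT116 (62.1 to 76.2%), 65.1% in LS513 (60.0 to 69.9%) and 71.8% in SW620 (65.3 to 77.8%), against 65.9%, 57.4% and 63.0% in the rest. At an FDR under 0.01 in the authors' deposited tables, 30 block loops remained in HCT116, 67 in LS513, 34 in SW620 and 1 in SW480. As a share of the block loops this was 16.9%, 18.0%, 16.0% and 25.0%, against 13.0%, 18.2%, 15.0% and 9.46% in the rest.

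The loop with most PETs in the third block of HCT116 joined chr19:53444308-53450461 with chr19:53836445-53838576, 390 kb away. It held 20 PETs in HCT116 and 16 in LS513, or 245 and 72.0 PETs per 1000000 filtered PETs of the library. Its anchors carried 23 and 6 same-anchor PETs in HCT116, and 93 and 2 in LS513, where the median block anchor had 10 in HCT116 and 15 in LS513. The second anchor was thus below the median in both lines. The loop thus outnumbered the same-anchor PETs of its second anchor in both lines. SW620 had an anchor at the first position only, with 0 same-anchor PETs, and SW480 had an anchor at neither, so the loop could not have been counted there.

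In the second block the leading loop of HCT116, LS513 and SW620 joined the dominant anchor with its neighbour at chr19:36603091-36608491, which lies just inside the block edge. It held 9 PETs in HCT116, 26 in LS513 and 7 in SW620, where a second loop of the block also had 7 PETs. SW480 had no anchor at the neighbour and 0 PETs. Per 1000000 filtered PETs the values were 110 in HCT116, 117 in LS513 and 45.9 in SW620.

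The leading loop of the fourth block was the same in these 3 lines too. It joined chr19:56616009-56634499 with chr19:56650401-56654677, 27.3 kb apart, and held 7 PETs in HCT116, 19 in LS513 and 13 in SW620. Scaled to depth it stood at 85.8, 85.5 and 85.3 PETs per 1000000 in the 3 lines, on counts too small to show that the lines were equal. SW480 had an anchor at the first position, with 29 same-anchor PETs, and none at the second.

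The leading loop of the third block was a different one in each of these lines. In the third block of LS513 the first place went to a short contact of 7.51 kb between chr19:53437486-53442253 and chr19:53444308-53450461, with 21 PETs in LS513 and 1 in HCT116. In SW620 it went to a loop between chr19:52771924-52774988 and chr19:52799616-52801927, with 5 PETs, where HCT116 had 3 and LS513 had 4. The strongest SW480 loop left the second block at its right edge. It joined chr19:38395238-38400669 with chr19:38467093-38498327 and held 4 PETs in SW480 and 6 in SW620, beside 8 in HCT116 and 14 in LS513. The first block had no loop above 4 PETs in any line. Its strongest loops were at chr19:21201536-21204881 with 2 PETs in HCT116, at chr19:23575552-23579083 with 4 in LS513 and at chr19:20276325-20279413 with 4 in SW620. Each had 0 PETs in the other lines. HCT116 and LS513 both had the anchors of the first 2 of these loops, while SW620 and SW480 had neither. The SW620 loop, whose other anchor lay outside the block, had no anchor in any other line. Where the anchors were missing, a loop could not have been counted.

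Loops with more PETs than their weaker anchor were counted in all lines after this pattern had been seen, as a description. Among loops of at least 5 PETs, those with more PETs than the weaker of their anchors had same-anchor PETs numbered 4 of 8 in the blocks in HCT116, 3 of 26 in LS513, 2 of 11 in SW620 and 0 of 0 in SW480. In the rest of the chromosome they numbered 9 of 321, 39 of 1003, 54 of 464 and 2 of 15. The block counts are too small to rank the lines.

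**Figure D4:**
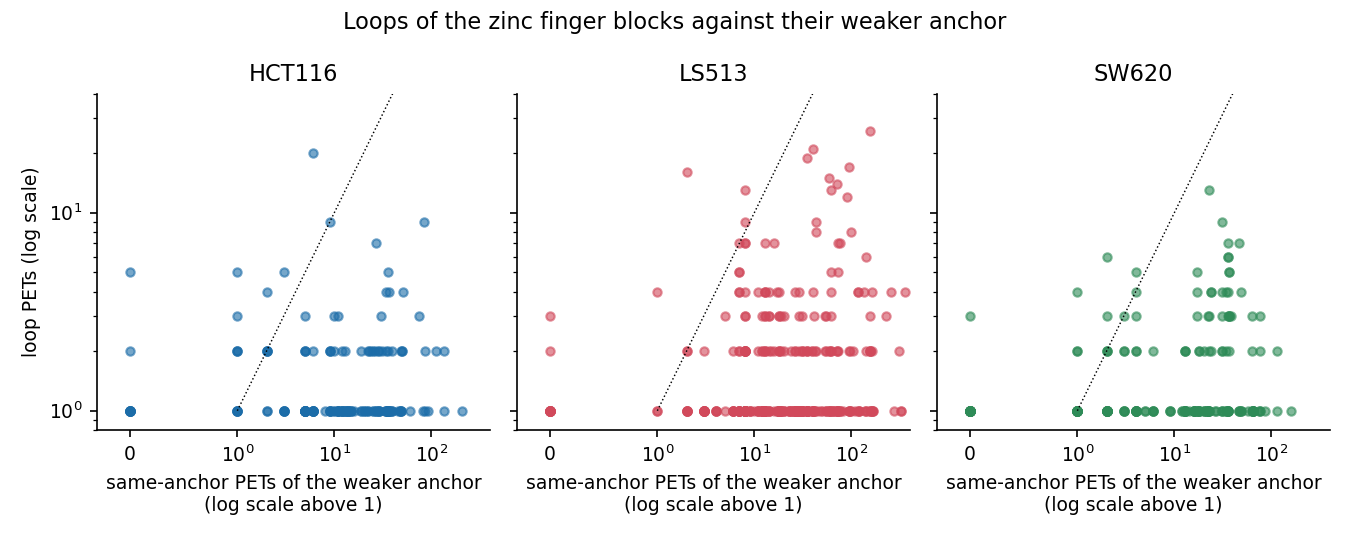
PETs of each block loop (log axis) against the same-anchor PETs of its weaker anchor (log axis above 1, with 0 at the left) in HCT116, LS513 and SW620, 1 point per loop; SW480, with 4 loops, is not drawn. The dotted line marks equality, and points above it are loops with more PETs than their weaker anchor, such as the loop of 20 PETs in HCT116 and of 16 in LS513 in the third block.

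HCT116 and LS513 could be compared at nearly the same anchors, by the fold of same-anchor PETs per 1000000 same-anchor PETs of the library. A region was called at 2-fold or more with at least 10 PETs in the higher library. With 1 library per line there was no test. Only 59 of the 88 block regions reached 10 PETs in either line, against 938 of 1097 in the rest of chromosome 19. Over all chromosomes it was 15870 of 20682. The shares below are thus not matched for counts. LS513 was also the deeper library, so the minimum was easier to meet for lower calls. Of 88 block regions, 8 were higher in HCT116, or 9.09% (4.01 to 17.1%), against 16.0% of the 20682 regions compared on all chromosomes. Lower calls numbered 15, or 17.0% (9.87 to 26.6%), against 7.22% of all regions. In the rest of chromosome 19 the calls ran the other way, with 199 of 1097 regions higher (18.1%) and 57 lower (5.20%). The median fold was 0.884 in the blocks, 1.21 in the rest of chromosome 19 and 1.15 over all regions. With that last median set to 1, 7 block regions were higher and 18 lower, against 12.0% and 10.2% of all regions. At 3-fold, 7 block regions were higher and 5 lower, or 7.95% and 5.68%, against 6.90% and 2.43% of all regions. The order of the 2 block counts thus depended on the fold asked for, while the lower share stayed above that of all regions.

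The block totals gave the same picture for the anchors but not for the loops. Per 1000000 same-anchor PETs, the blocks held 2671 in HCT116, against 3070 in LS513. The ratio was 0.870 (0.827 to 0.915). In the rest of chromosome 19 this ratio was 1.07. It was 0.558 in the first block (0.444 to 0.696), 0.826 in the second, 0.846 in the third and 1.02 in the fourth (0.933 to 1.11). For loop PETs the ratio over all blocks was 1.02 (0.885 to 1.16), with 1.34 in the third block (1.03 to 1.73) and 0.821 in the second (0.633 to 1.05). The intervals of the loop ratios included 1 in every block but the third.

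The 3 called regions with the largest folds up in HCT116 lay in 3 different blocks. At chr19:53191956-53195413 in the third block HCT116 had 20 PETs and LS513 had 3, 10.7 times as many after scaling (3.18 to 56.3). At chr19:21510285-21513100 in the first block the counts were 12 in HCT116 and 3 in LS513 (6.43-fold, 1.73 to 35.5). At chr19:57701425-57704743 in the fourth block they were 38 and 12 (5.09-fold, 2.60 to 10.7). No anchor of SW620 or SW480 overlapped these 3 regions. Among the other higher regions, chr19:58738411-58742502 had 92 PETs in HCT116 and 35 in LS513, and SW620 had 113. That region was named after its values were seen.

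The lower regions were led by chr19:23596415-23599955 in the first block, with 5 PETs in HCT116 and 57 in LS513, a fold of 0.141 (0.0441 to 0.349). In the second block chr19:37567865-37571670 had 1 PET in HCT116 and 11 in LS513, a fold of 0.146 whose interval (0.00339 to 1.00) reached 1. In the fourth block chr19:58161157-58165295 had 4 and 42 PETs, a fold of 0.153 (0.0399 to 0.422). The lower region with most PETs in LS513, named after its values were seen, was chr19:37261878-37264915 with 28 PETs in HCT116 and 163 in LS513. SW620 and SW480 had no anchor there. Both anchors of the short LS513 contact described above were among the lower regions, with 8 and 23 PETs in HCT116 and 40 and 93 in LS513.

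**Figure D5:**
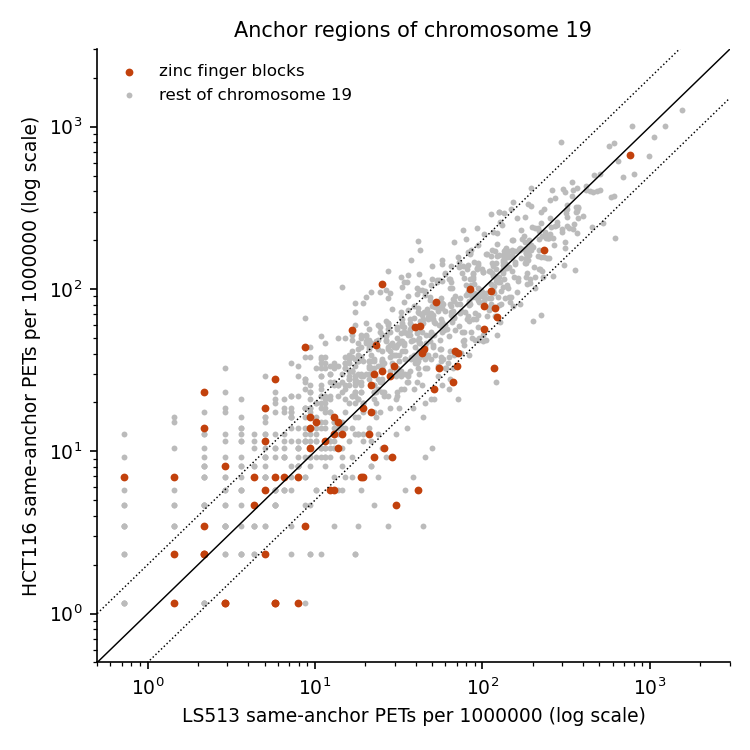
Same-anchor PETs per 1000000 of the library in HCT116 (vertical, log axis) and LS513 (horizontal, log axis) at regions of chromosome 19 with an anchor in both lines, with the zinc finger blocks in orange and the rest in grey. The solid line marks equality and the dotted lines a 2-fold difference; 11 block regions and 31 others at 0 in either library are not drawn. Of all 88 block regions 15 were called lower in HCT116 and 8 higher.

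SW620 and SW480, lines from a metastasis and the primary tumour of 1 patient, could be compared at few places. Only 6 block regions had an anchor in both lines, and 0 of them were called higher in SW620, against 9.37% of the 6364 regions compared on all chromosomes. Lower calls numbered 4, against 25.4% of all regions, and in the rest of chromosome 19 they numbered 60 of 187. The median fold was 0.387 in the blocks, 0.564 in the rest of the chromosome and 0.589 over all regions. Scaled so that the median fold over all regions was 1, no block region was called lower, against 12.8% of all regions. The dominant anchor of the second block had 447 PETs in SW620 and 223 in SW480, a fold of 0.310 after scaling (0.263 to 0.365). At chr19:38395238-38400669 the counts were 36 in SW620 and 18 in SW480 (fold 0.309), and at chr19:56616009-56635105 they were 65 and 29 (fold 0.346). Elsewhere SW480 had few anchors or none. Of the 66 block regions of SW620, 6 had an SW480 anchor, against 187 of 1063 in the rest of chromosome 19.

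The totals of the blocks therefore differed between measures. Per 1000000 same-anchor PETs the blocks held 2128 in SW620, against 2260 in SW480. The ratio was 0.941 (0.832 to 1.07). The second block was lower in SW620, with a ratio of 0.432 (0.374 to 0.501), while the total of the fourth was higher, with 2.56 (1.84 to 3.68). SW480 had 2 anchors in the fourth block, against 23 in SW620. At the 2 regions of that block with an anchor in both lines, the folds were 0.346 and 0.715. In the first block SW480 had 0 anchors, so no same-anchor PET could have been counted there. With 3 counts as the floor for SW480 in the block, the ratio was 6.54 (from 5.24 upward). Loop PETs per 1000000 filtered PETs were 2349 in SW620 and 504 in SW480, a ratio of 4.66 (2.24 to 11.7), against 2.81 (2.51 to 3.14) in the rest of chromosome 19. With the same floor, the loop ratio was 2.43 in the third block (from 1.93 upward) and 5.01 in the fourth (from 4.03 upward). SW480 had only 1 anchor in the third block and 2 in the fourth, so few loops could have been counted there. In the first block SW480 had no anchor, so no loop with an end there could have been counted. The floor of 3 counts also stood at 216 PETs per 1000000 in SW480, above the 125 that SW620 held, so a difference was not detectable.

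The anchors of the 4 libraries merged into 108 block regions, of which 19 occurred in 1 library, 40 in 2, 43 in 3 and 6 in all 4. Those in 1 library made up 17.6% (10.9 to 26.1%), against 21.8% in the rest of the chromosome (19.6 to 24.0%). The 6 made up 5.56% of the regions (2.07 to 11.7%), against 11.9% in the rest of chromosome 19 (10.2 to 13.7%). Of the 88 block regions shared by HCT116 and LS513, 49 also had an anchor in SW620, or 55.7% (44.7 to 66.3%), against 68.5% in the rest (65.6 to 71.2%). The intervals of blocks and rest overlapped in these 3 comparisons. The first block was the least shared, with 4 of 14 such regions found in SW620, and the fourth had 20 of 30.

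For loops, both anchors had to overlap those of 1 loop of the other line. HCT116 block loops were found in LS513 at 50.8% (43.2 to 58.4%), against 60.4% for the rest of chromosome 19 (58.8 to 61.9%). LS513 block loops were found in HCT116 at 24.2% (19.9 to 28.9%), against 34.0% (32.9 to 35.1%). SW620 block loops were found in LS513 at 36.6% (30.1 to 43.5%), against 49.1% (47.6 to 50.6%). In these 3 comparisons the intervals of blocks and rest did not overlap when all loops were kept. Nor did they for SW620 loops in HCT116 or LS513 loops in SW620. For HCT116 loops in SW620 they overlapped, at 28.8% (22.3 to 36.1%) against 36.1% (34.6 to 37.6%). The difference for HCT116 loops in LS513 was -9.53 points, and -8.27 points after LS513 was thinned to the depth of HCT116. With loops of at least 2 PETs it was -13.4 points, with 33 of 54 block loops found. The share was then 61.1% (46.9 to 74.1%) against 74.5% (72.1 to 76.8%). At that minimum the intervals of blocks and rest overlapped in all 3 comparisons first named. Of the 4 SW480 block loops 3 were found in SW620, or 75.0% (19.4 to 99.4%), against 58.1% in the rest. Of the 213 SW620 block loops 3 were found in SW480, a share of 1.41% against 2.09% in the rest.

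Contacts beyond the filtered range were more frequent in the blocks when set against same-anchor PETs. Ends of PETs joining anchors more than 2 Mb apart on chromosome 19 numbered 5.29 per 100 same-anchor PETs in the blocks in HCT116, 7.89 in LS513, 8.35 in SW620 and 1.36 in SW480, against 3.01, 5.51, 5.03 and 1.13 in the rest. The ratio was 1.76 in HCT116 (1.45 to 2.11), 1.43 in LS513 (1.28 to 1.60), 1.66 in SW620 (1.40 to 1.96) and 1.20 in SW480 (0.319 to 3.23, on 4 ends), so the interval of SW480 alone included 1. The mean log2 ratio was 0.58 ± 0.244 (SD, n = 4; exact permutation p = 0.125), and 0.69 without SW480. PETs to other chromosomes gave no common direction, with ratios of 1.27 in HCT116, 1.24 in LS513, 0.976 in SW620 and 0.451 in SW480 (exact permutation p = 0.875). Their mean log2 ratio was -0.13, and 0.21 without SW480.

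Some of these long contacts joined 2 blocks. PETs over 2 Mb with both ends in blocks numbered 11 in HCT116, 15 in LS513, 18 in SW620 and 0 in SW480, of which 10, 12, 13 and 0 joined different blocks. No single pair of anchors with an end in a block held more than 3 such PETs. Of the block ends of these PETs, 18.0% in HCT116, 8.93% in LS513 and 24.0% in SW620 had their partner in a block too. Block ends made up 5.30%, 5.31% and 5.48% of all ends at this range in these lines. Distance was not matched in this comparison. The pair of the third and the fourth block, which are neighbours, held 2 of these PETs in HCT116, 5 in LS513 and 4 in SW620.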

How the data were processed

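H3K27ac HiChIP of 4 cell lines, 1 library each, was taken as deposited. Per the labels' protocols, 1% formaldehyde fixed the cells, MboI cut the DNA, ligation preceded the immunoprecipitation, and Tn5 made the libraries. Per the submitters' processing notes, HiC-Pro and hg19 (GRCh37) were used. Not given in the sources used here are the peak caller, the loop caller and the treatment of reads that match several near-identical zinc finger genes. Each deposited value counts PETs of 1 pair of anchors, as a whole-number count without normalisation. A number between 0 and 1 per loop in the authors' deposited tables, in a column with no header, was taken for an adjusted p-value (FDR), since among loops of like span it was mostly lower at higher PET counts. It was also lower at longer spans, so a filter on it also selects by span.

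Members and comparisons were chosen with earlier results of these data known. Chromosomes 1 to 22 and X were used. The length of the rest of chromosome 19 was 44.6 Mb, up to the last anchor and without the longest stretch free of anchors (3.78 Mb). Zinc finger genes were counted in RefSeq (GRCh38.p14) by symbols starting with ZNF, ZFP, ZSCAN, ZKSCAN, ZIK, ZIM or HKR and a digit. Block to rest ratios were taken within each library and tested by exact sign-flip permutation. Ratio intervals are exact conditional and share intervals exact Clopper-Pearson (95%). Anchors of the libraries overlapping by 1 bp or more were merged into regions. For a fold, 3 counts stood in for 0. Named by rule were, per block and line, the loop with most PETs, per block the region with the highest mean over the libraries, per line the block anchor with most partners, and per pair of lines the 3 called regions with the largest folds each way. The calls were tested on simulated data first. The tools were scipy 1.17.1, pandas 2.3.3 and numpy 2.4.6 under Python 3.11.15, with matplotlib 3.10.9 for figures. Depth limits SW480 most, where the floor of 3 counts for 0 loop PETs stands at 216 per 1000000. Alternatives covered block edges, blocks, libraries, PET minimum, FDR, length measure, scaling and thinning.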

Additional observations from a re-analysis of the deposited data

How the results depend on the processing

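Of the alternatives, 77 left their result in place, 25 moved it and 2 reversed it. Values are mean log2 ratios of blocks to rest unless said otherwise. Results counted as in place could still change in size. Anchors per Mb went from -2.11 to -1.52 without block 1. Loop PETs per 100 same-anchor PETs went from -0.24 to -0.72 by loop ends, where all 4 lines were below 1. Loop PETs per Mb (-2.90) moved to -3.90 with the edges 100 kb inward, -2.15 without block 1, -3.32 without block 2, -4.21 with both anchors in the same block, -0.27 per Mb covered by anchors and -3.37 counted by loop ends. Leaving out 1 library gave -2.98 to -2.70. Same-anchor PETs per Mb (-2.65) moved to -3.71 with the edges inward, -1.94 without block 1, -3.68 without block 2, -0.025 per covered Mb and -3.47 without the strongest block anchor, and ranged over -2.77 to -2.56 without 1 library. Anchors per Mb (-2.11) gave -2.29 to -1.76 without 1 library.

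Loop PETs per 100 same-anchor PETs (-0.24) reversed to 0.37 without block 2, where SW480 had 0 loops and the floor of 3 counts was used, and to 0.071 without SW480, and moved to -1.56 with both anchors in the same block. Without 1 library it ranged over -0.39 to 0.071. The cause was not tested. The span (1.46) moved to 2.01 with the edges inward, 0.81 with both anchors in the same block, 2.09 at FDR under 0.01 and 0.77 with each loop counted once, and ranged over 1.39 to 1.62 without 1 library. Without block 2 it is a mean over 3 libraries. The block share of loop PETs (3.20%) moved to 1.90% with the edges inward, 1.90% without block 2, 2.12% without block 4 and 1.62% with both anchors in the same block, and ranged over 3.02 to 3.56% without 1 library.

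Of the 88 block regions compared between HCT116 and LS513, 8 were called higher in HCT116 and 15 lower, against 16.0% and 7.22% of all regions. With at least 20 PETs it was 5 higher and 11 lower, against 10.5% and 5.92%. At 3-fold it was 7 higher and 5 lower, or 7.95% and 5.68%, against 6.90% and 2.43%. The counts of higher and lower calls then changed order, while the lower share stayed above that of all regions. Lower calls in SW620 against SW480 (4 of 6 block regions) numbered 2 at 3-fold, 2 with at least 20 PETs and 0 with the median fold set to 1. The shares of all regions were 15.3%, 14.7% and 12.8% in these settings, against 25.4% in the main one. Shares of loops found in the other line kept their direction in every alternative run. Counting by loop ends and leaving out the strongest block anchor were, like the combinations of a setting with leaving out SW480, chosen after seeing the data. No paired analysis was possible because each line had 1 library, whose replicate number only names it. With 1 library per line, differences between lines have no replicate check, and SW480 values rest on 7 block loop PETs.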
